A study of Mus musculus with 8 samples.

Results

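The genes described here are 7 regulators of alternative splicing with a part in the choice between epithelial and mesenchymal exons, namely Esrp1, Esrp2, Rbfox2, Mbnl1, Ptbp1, Ptbp2 and Srsf1. They were chosen by name, not by their values, among the 31894 genes with an identifier in the count table, though with earlier results of these data known. All 7 had enough counts to be among the 13598 genes tested. The counts are per gene, so they give the level of each regulator but not the isoforms that it makes or that its target genes carry.

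A pre-mRNA can be spliced in several ways, and RNA-binding proteins decide which exons are kept. The epithelial splicing regulatory proteins Esrp1 and Esrp2 are made in epithelial cells and are typically lost in epithelial-to-mesenchymal transition (EMT), when Fgfr2, Cd44, Ctnnd1 and Enah switch to mesenchymal isoforms. Rbfox2, Mbnl1, Ptbp1 and Srsf1 are made in most cell types and act on many exons, Rbfox2 often towards the mesenchymal form. Ptbp2 is the paralog of Ptbp1 and is best known from developing neurons, in which Ptbp1 is shut off.

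Bulk mRNA was sequenced from tumor cells of breast cancer brain metastases (BCBM) in 4 FVB mice, which the sample labels number 57, 58, 67 and 70 and give as wild type. The tumors had grown from brain-enriched organoids of the PyMT model, in which the polyoma middle T antigen is driven by the mouse mammary tumor virus promoter, and all tumor cells carry E-cadherin fused to mCFP. Each tumor was sorted into E-cadHI cells, with high E-cad-mCFP, and E-cadLO cells, with low E-cad-mCFP, so each group has 4 libraries and each mouse gave both. The organoids come from tumors passed repeatedly through the brain, so all tumors share this origin, and the purity of the sort was checked on E-cadHI cells only, because E-cadLO cells were too few. In these bulk samples, fewer cells of a type and less RNA per cell cannot be told apart.

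Total counts were 9102781 to 15769200 per library, and 3 counts correspond to 0.202 to 0.349 CPM, the normalized counts scaled to the library size. The gene the cells were sorted on, Cdh1 (E-cadherin), stood at 114, 132, 93.5 and 108 CPM in the E-cadHI libraries of mice 57, 58, 67 and 70 and at 71.6, 181, 84.5 and 59.2 CPM in their E-cadLO libraries. Its mRNA was thus lower in the library labelled E-cadLO in 3 of 4 mice, and in mouse 58 it went against the labels (log2 fold change -0.17, adjusted p = 0.809, edgeR). In the E-cadLO library of mouse 58, a single gene, Gm42418, also took 14.4% of the counts, beside 2.23% to 7.67% in the other libraries. The sort was made on the protein. The fold change of each of the 7 regulators is given with and without mouse 58, as are the DESeq2 calls of the other genes named. All 12 epithelial markers were detected in every library, with a summed level of 8164 to 11227 CPM in E-cadHI and 5867 to 14529.8 CPM in E-cadLO libraries. Taken singly, 9 of the 12 (75%) had a log2 fold change below 0, beside 44.9% of all genes (edgeR). Their median was -0.36, beside 0.06 for all genes, and edgeR called 0 of them.

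An exon of Ptbp2 shows what a gene count cannot separate. This 34-base exon (GRCm38 chr3:119724612-119724645, minus strand) lies within 6 annotated transcripts of GENCODE M21, of which 3 hold it. Ptbp1 is known to cause skipping of the exon, which shifts the reading frame and sends the mRNA to decay. The sequence runs 5′ to 3′ on the coding strand, with no part in capitals.
Ptbp2 exon: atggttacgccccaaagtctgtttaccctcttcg

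Of the 7 regulators, Ptbp2 was the only one that passed a test in any of the fits made. It was about 2 times as high in E-cadLO as in E-cadHI cells and rose by DESeq2 but not by edgeR's quasi-likelihood test. Neither of the ESRP genes, whose loss marks EMT, passed a test, and their fold changes were close to 0 or differed in direction between mice. Srsf1 was lower in E-cadLO libraries by a small amount that passed no test. Rbfox2 and Mbnl1 stood apart in 1 mouse, and Ptbp1 had nearly equal means in both groups.

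edgeR's quasi-likelihood test without the mouse called 0 of the 7 regulators higher and 0 lower, where it called 0% of all tested genes in each direction (Benjamini-Hochberg adjustment over all genes, threshold 0.05). At an unadjusted p under 0.05 it gave 1 of the 7 higher and 0 lower, and 1109 and 790 of the 13598 genes tested. With a replicate block for the mouse, edgeR called 0 of 7 in either direction, where it called 0.728% of all genes higher and 0% lower. DESeq2 called 1 of 7 higher and 0 lower, where it called 2.31% of all genes higher and 0.473% lower. DESeq2 with the replicate block called the same gene, Ptbp2, where it called 7.72% of all genes higher and 1.69% lower. The median log2 fold change of the 7 was 0.01, and that of all genes was 0.06 (edgeR).

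**Figure D1:**
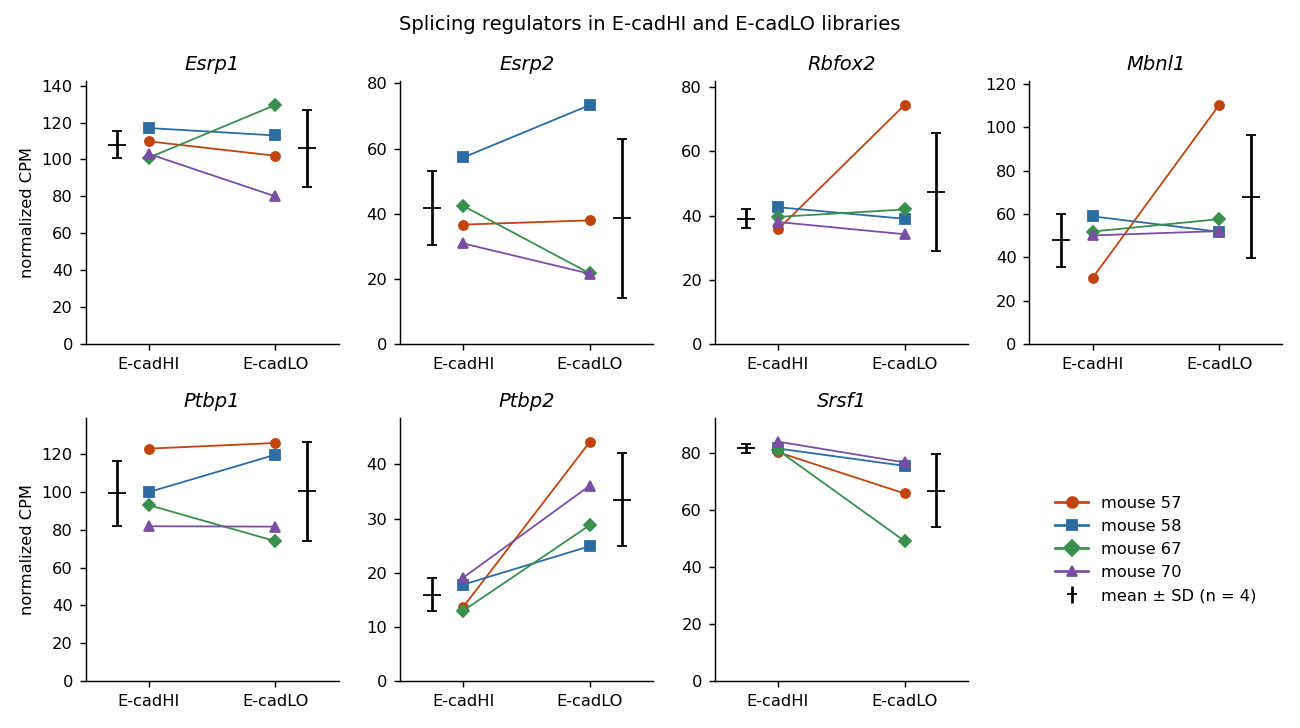
Normalized CPM of each regulator (y axis, from 0) in the E-cadHI and E-cadLO libraries, with a line joining the libraries of a mouse and the mean ± SD of 4 libraries beside them. Ptbp2 lies at 13.0 to 19.1 CPM in E-cadHI and at 24.9 to 44.2 CPM in E-cadLO libraries, and the E-cadLO library of mouse 57 lies above the others for Rbfox2 and Mbnl1.

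Ptbp2 (ENSMUSG00000028134, GRCm38 chr3:119718742-119784466, minus strand) was measured at 13.7, 17.8, 13.0 and 19.1 CPM in the E-cadHI libraries of mice 57, 58, 67 and 70 and at 44.2, 24.9, 28.8 and 36.1 CPM in their E-cadLO libraries. Behind these values stood 175 to 232 counts in E-cadHI and 214 to 595 counts in E-cadLO libraries. Every E-cadLO library was above every E-cadHI library, which held for 3.90% of all genes tested, also when counts were scaled by DESeq2's size factors or by library totals. The means were 15.9 ± 3.03 CPM and 33.5 ± 8.52 CPM (SD, n = 4 each).

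The E-cadLO library of a mouse was 3.16, 1.39, 2.17 and 1.87 times as high in Ptbp2 as its E-cadHI library, in the same order of mice. The increase was smallest in mouse 58, the mouse in which Cdh1 mRNA went against the labels. It was higher in 4 of 4 mice, as were 16.8% of all genes, and 2 of the 16 sign flips of an exact two-sided test were as extreme, the fewest possible with 4 mice. By edgeR the log2 fold change was 1.08 with a standard error of 0.25 and a 95% interval of 0.52 to 1.63 (adjusted p = 0.251). With the replicate block it was 1.06 (adjusted p = 0.109, edgeR). By DESeq2 Ptbp2 rose with a log2 fold change of 1.11 (adjusted p = 0.00876), and with the replicate block with one of 1.08 (adjusted p = 0.00407). Without mouse 58 the log2 fold change was 1.27 by edgeR (adjusted p = 0.306) and 1.29 by DESeq2 (adjusted p = 0.00858). Without mouse 67 Ptbp2 passed neither in DESeq2 (1.09, adjusted p = 0.18) nor in DESeq2 with the replicate block (1.05, adjusted p = 0.111). Without mouse 57 it passed in DESeq2 with the replicate block (0.85, adjusted p = 0.0383) and not in DESeq2 without it (adjusted p = 0.177).

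Summed markers of most other cell types were also higher in E-cadLO libraries, and their part in the difference of Ptbp2 was not tested. The summed level of 10 fibroblast and mural markers was higher in E-cadLO in 4 of 4 mice, by 6.92, 0.61, 2.61 and 1.52 on the log2 scale in mice 57, 58, 67 and 70. It was highest, at 1202 CPM, in the E-cadLO library of mouse 57, which also had the most Ptbp2. In that library the sums of the neuron, microglia, oligodendrocyte, astrocyte and endothelial markers were the lowest of the E-cadLO group. The summed level of 10 neuron markers was 30.9 to 154 CPM in E-cadHI and 49.3 to 525 CPM in E-cadLO libraries, higher in E-cadLO in 4 of 4 mice. Of these 10 markers, Stmn2, Tubb3, Slc17a7 and Nefm were at 0 in at least 1 library. The summed level of 12 microglia and macrophage markers was also higher in 4 of 4 mice, with 36.3 to 278 CPM in E-cadHI and 157 to 1007 CPM in E-cadLO libraries, and Ptprc was at 0 in 1 library. The summed levels of 10 oligodendrocyte markers (607 to 8685 and 1343 to 34514 CPM, Olig2 at 0 in some libraries) and of 8 endothelial markers (41.5 to 76.3 and 57.8 to 102 CPM, with Kdr, Cldn5, Emcn and Vwf at 0 in some) were higher in 4 of 4 mice as well. The 8 astrocyte markers, of which none was at 0, summed to 1146 to 3557 CPM in E-cadHI and 723 to 9881 CPM in E-cadLO libraries, higher in mice 58, 67 and 70. Taken singly, 11 of 12 microglia and macrophage, 5 of 10 neuron and 5 of 10 oligodendrocyte markers were higher in 4 of 4 mice. The same held for 5 of 8 astrocyte, 3 of 8 endothelial and 3 of 10 fibroblast and mural markers.

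Ptbp1 (ENSMUSG00000006498, chr10:79854427-79864771, plus strand), the polypyrimidine tract-binding protein of most non-neuronal cells, was measured at 123, 100, 93.1 and 81.9 CPM in E-cadHI libraries and at 126, 120, 74.0 and 81.7 CPM in E-cadLO libraries of mice 57, 58, 67 and 70. The groups overlapped over most of their range, and the difference within a mouse was up in mouse 58, down in mouse 67 and near 0 in the other two. The log2 fold change was 0.01 with a 95% interval of -0.48 to 0.50 (adjusted p = 0.981, edgeR), which leaves room for a change of 0.719 to 1.42 times. Without mouse 58 it was -0.06 (adjusted p = 0.918, edgeR). Of the 5309 stretches of 65 bases, the read length, in annotated Ptbp1 transcripts, 14.6% also occur in transcripts of Plppr3, E130317F20Rik, Gm17134 or Gm4900, so reads from these could be counted for either gene. Ptbp2 shares no such stretch with another gene.

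**Figure D2:**
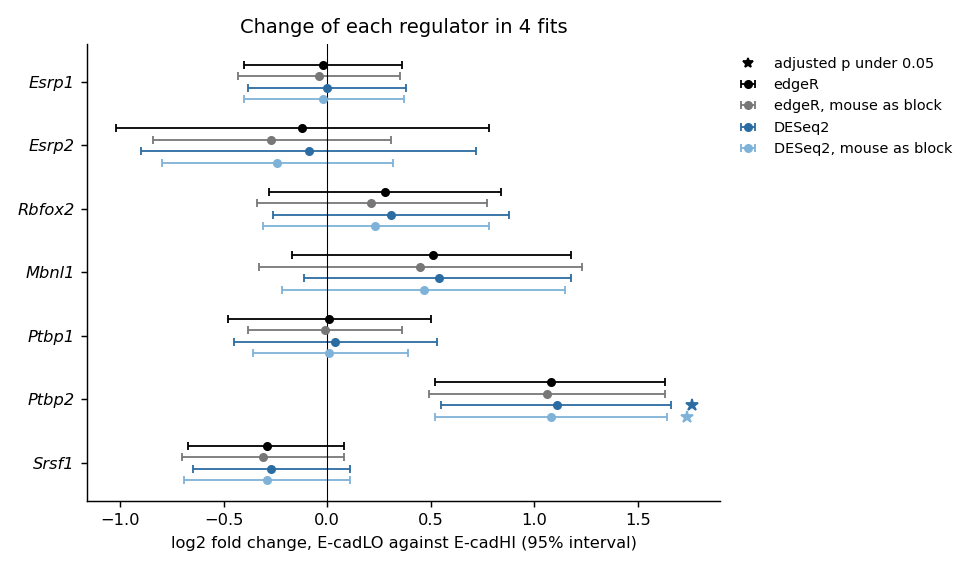
Log2 fold change of each regulator, E-cadLO against E-cadHI (x axis), in edgeR and DESeq2 with and without the mouse as block, with 95% intervals and a star where the adjusted p is under 0.05. Stars stand only at the DESeq2 fits of Ptbp2, at 1.11 and 1.08, and the intervals of the other 6 regulators cross 0 in all 4 fits.

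Srsf1 (ENSMUSG00000018379, chr11:88047373-88053755, plus strand), the founding SR protein and a promoter of exon inclusion, was measured at 80.3, 81.6, 81.0 and 84.0 CPM in E-cadHI libraries and at 65.8, 75.5, 49.1 and 76.7 CPM in E-cadLO libraries of mice 57, 58, 67 and 70. Every E-cadLO library was below every E-cadHI library, which held for 4.20% of all genes tested. It was lower in 4 of 4 mice, as were 14.2% of all genes (2 of 16 sign flips, exact two-sided test). The coefficient of variation was 1.98% over the E-cadHI libraries and 19.1% over the E-cadLO libraries, of which mouse 67 was lowest. When counts were scaled by library totals alone, Srsf1 was not lower in mouse 57 (log2 ratio 0.02) and the groups overlapped. The log2 fold change was -0.29 with a standard error of 0.17 and a 95% interval of -0.67 to 0.08 (adjusted p = 0.436, edgeR). It was -0.31 with the replicate block (adjusted p = 0.33, edgeR), -0.34 without mouse 58 (adjusted p = 0.447, edgeR) and -0.17 without mouse 67 (adjusted p = 0.765, edgeR).

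Esrp1 (ENSMUSG00000040728, chr4:11331933-11386783, minus strand), the main epithelial splicing factor, was measured at 109.8, 117, 101 and 103 CPM in E-cadHI libraries and at 102, 113, 130 and 80.0 CPM in E-cadLO libraries of mice 57, 58, 67 and 70. The E-cadLO libraries lay on both sides of the E-cadHI libraries, with mouse 67 above and mouse 70 below all of them. The log2 fold change was -0.02 with a standard error of 0.17 (adjusted p = 0.962, edgeR). Its 95% interval, -0.40 to 0.36, corresponds to 0.757 to 1.28 times the E-cadHI level. The sign of this value differed between fits, since it was 0.02 when genes under 10 counts in any library were dropped and -0.04 with the replicate block, and it was 0.01 without mouse 58.

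In mouse 57 the epithelial marker sum was lower in E-cadLO than in E-cadHI cells, with a log2 ratio of -0.94, and in the same mouse the log2 ratio of Esrp1 was -0.10. In mouse 67 both were higher in E-cadLO, by 0.41 for the markers and 0.36 for Esrp1. In mouse 58 the markers were higher (0.28) and Esrp1 was at -0.05, and in mouse 70 both were lower, at -0.21 for the markers and -0.36 for Esrp1.

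Esrp2 (ENSMUSG00000084128, chr8:106130319-106136974, minus strand), which shares targets with Esrp1, was measured at 36.7, 57.3, 42.4 and 30.9 CPM in E-cadHI libraries and at 38.0, 73.4, 21.7 and 21.6 CPM in E-cadLO libraries. Mice 67 and 70 had less Esrp2 in E-cadLO cells, with 0.516 and 0.704 times the E-cadHI level, whereas mice 57 and 58 had 1.04 and 1.28 times as much. The log2 fold change was -0.12 with a standard error of 0.40 and a 95% interval of -1.02 to 0.78 (adjusted p = 0.899, edgeR). With the replicate block it was -0.27 and its interval was -0.84 to 0.31 (adjusted p = 0.562, edgeR). Without mouse 58 it was -0.42 (adjusted p = 0.526, edgeR), and without mouse 67 it turned to 0.11 (adjusted p = 0.947, edgeR).

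Rbfox2 (ENSMUSG00000033565, chr15:77078990-77307053, minus strand), which binds UGCAUG elements in introns, was measured at 35.7, 42.6, 39.6 and 38.0 CPM in E-cadHI libraries and at 74.4, 39.0, 41.9 and 34.2 CPM in E-cadLO libraries of mice 57, 58, 67 and 70. The E-cadLO library of mouse 57 was 2.07 times as high as its E-cadHI library, and the other 3 mice differed by 0.902 to 1.06 times. The log2 fold change of 0.28, with a 95% interval of -0.28 to 0.84 (adjusted p = 0.585, edgeR), turned to -0.08 without mouse 57 (adjusted p = 0.922, edgeR) and was 0.43 without mouse 58 (adjusted p = 0.527, edgeR).

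Mbnl1 (ENSMUSG00000027763, chr3:60472830-60629750, plus strand), a regulator of exon choice in muscle and of cell differentiation, was measured at 30.5, 58.9, 51.9 and 50.1 CPM in E-cadHI libraries and at 110.2, 51.8, 57.6 and 52.1 CPM in E-cadLO libraries. Mouse 57 had both the lowest E-cadHI and the highest E-cadLO value, a ratio of 3.57, and the other 3 mice were at 0.879 to 1.11 times. The log2 fold change was 0.51 with a 95% interval of -0.17 to 1.18 (adjusted p = 0.449, edgeR). It was -0.02 without mouse 57 (adjusted p = 0.989, edgeR) and 0.75 without mouse 58 (adjusted p = 0.378, edgeR).

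The library that stood apart for Rbfox2 and Mbnl1 also stood apart in markers of fibroblasts and mural cells. The summed level of 10 such markers was 1202 CPM in the E-cadLO library of mouse 57, 27.3 to 192 CPM in the other E-cadLO libraries and 9.41 to 66.8 CPM in the E-cadHI libraries. Lum and Pdgfrb were at 0 in at least 1 library, and Col1a1 reached 497 CPM in the E-cadLO library of mouse 57. The part of these cells in the levels of Rbfox2 and Mbnl1 was not tested. The remaining list, 8 neutrophil and lymphocyte markers, summed to 15.4 to 25 CPM in E-cadHI and 6.84 to 24.2 CPM in E-cadLO libraries, and 7 of its 8 genes were at 0 in at least 1 library.

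**Figure D3:**
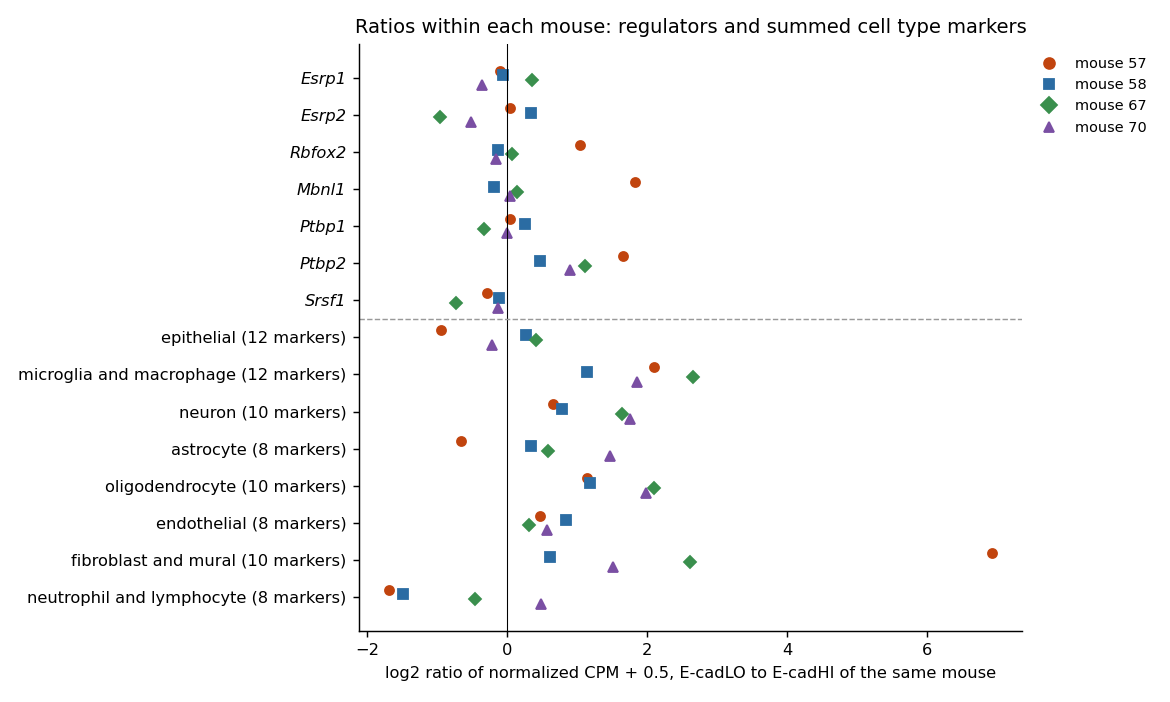
Log2 ratio of E-cadLO to E-cadHI within each mouse (x axis), for each regulator and for the summed level of each cell type's markers. Ptbp2 is above 0 in 4 of 4 mice, at 0.47 to 1.66, and the ratio of the fibroblast and mural markers in mouse 57 is 6.92.

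Levels can be compared between regulators only per length, as CPM per kilobase of annotated exons. In E-cadHI cells the order was Ptbp1 (21 ± 3.64), Esrp1 (17.1 ± 1.16), Srsf1 (14.3 ± 0.284), Esrp2 (9.64 ± 2.61), Rbfox2 (4.79 ± 0.359), Mbnl1 (2.56 ± 0.65) and Ptbp2 (1.73 ± 0.331; SD, n = 4). Ptbp1 and Esrp1 overlapped in this order, as did Mbnl1 and Ptbp2, and no other neighbours did. In E-cadLO cells Ptbp2 (3.65 ± 0.928) stood level with Mbnl1 (3.63 ± 1.51), and the ranges of all neighbours overlapped. There Ptbp1 was at 21.2 ± 5.55, Esrp1 at 16.8 ± 3.29, Srsf1 at 11.7 ± 2.23, Esrp2 at 8.91 ± 5.62 and Rbfox2 at 5.82 ± 2.24.

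Ratios of counts within 1 library do not depend on how libraries are scaled. Ptbp2 to Ptbp1 was 0.111, 0.179, 0.14 and 0.234 in E-cadHI libraries of mice 57, 58, 67 and 70 and 0.351, 0.208, 0.389 and 0.442 in E-cadLO libraries. This ratio was higher in E-cadLO cells in 4 of 4 mice, by 0.22 (mouse 58) to 1.66 (mouse 57) on the log2 scale, although the E-cadLO library of mouse 58 lay within the E-cadHI range. Ptbp1 to Srsf1, between regulators that each passed no test, was 1.53, 1.22, 1.15 and 0.975 in E-cadHI and 1.91, 1.59, 1.51 and 1.07 in E-cadLO libraries, also higher in 4 of 4 mice.

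The ratios of Rbfox2 and of Mbnl1 to Esrp1 did not move in one direction. Rbfox2 to Esrp1 was 0.325 to 0.393 in E-cadHI libraries and 0.726, 0.346, 0.324 and 0.429 in E-cadLO libraries of mice 57, 58, 67 and 70. Mbnl1 to Esrp1 was 0.278, 0.503, 0.514 and 0.487 in E-cadHI and 1.08, 0.46, 0.445 and 0.651 in E-cadLO libraries. Both ratios were thus higher in E-cadLO cells of mice 57 and 70, and in mice 58 and 67 they were lower. Esrp1 to Esrp2 was 2.99, 2.04, 2.38 and 3.33 in E-cadHI and 2.69, 1.54, 5.97 and 3.7 in E-cadLO libraries, and the E-cadLO library of mouse 67 lay farthest outside the E-cadHI range.

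**Figure D4:**
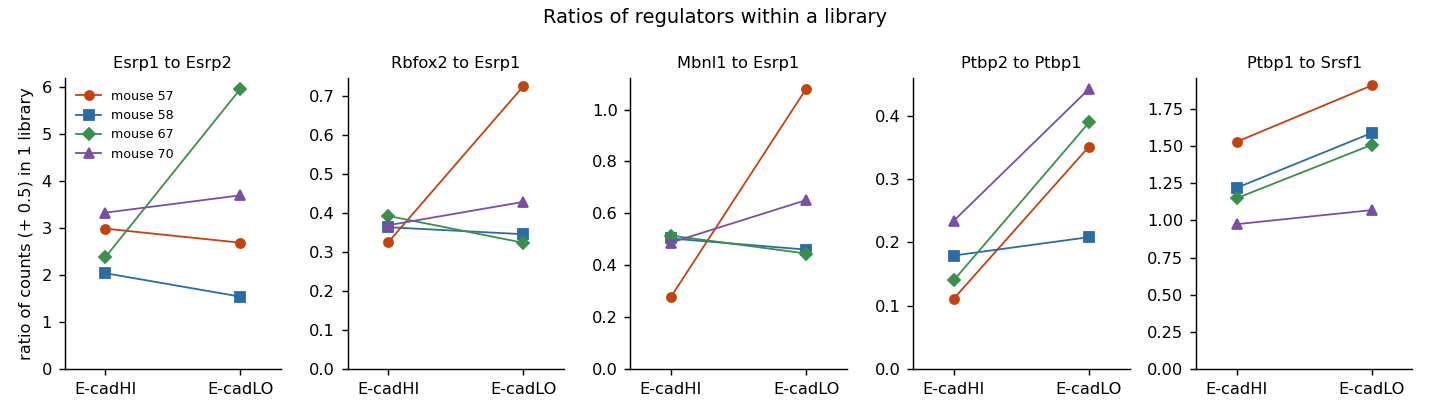
Ratio of the counts (plus 0.5) of a pair of regulators within each library (y axis, from 0), with a line joining the libraries of a mouse. Ptbp2 to Ptbp1 goes from 0.111 to 0.234 in E-cadHI up to 0.208 to 0.442 in E-cadLO libraries, and Ptbp1 to Srsf1 also goes up in each mouse.

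The paralogs of the 7 regulators gave 0 of 5 genes called by edgeR with or without the replicate block. Rbfox1 and Rbfox3, the neuronal members of the Rbfox family, were low throughout. Rbfox1 stood at 0, 1.15, 1.26 and 1.58 CPM in E-cadHI and 1.49, 4.19, 3.43 and 12.9 CPM in E-cadLO libraries of mice 57, 58, 67 and 70. Rbfox3, which is also 1 of the 10 neuron markers, stood at 0.209, 3.3, 1.26 and 2.55 CPM and at 2.08, 6.86, 7.88 and 13.6 CPM. Both rose in DESeq2 with the replicate block (adjusted p = 0.00582 and 0.000707), which called 7.72% of all genes higher. They passed in no other of these 4 fits. Without mouse 58 both still passed in DESeq2 with the replicate block (adjusted p = 0.0212 and 0.000902). Mbnl2 (log2 fold change 0.28, edgeR), Mbnl3 (-0.39) and Ptbp3 (-0.30) overlapped between the groups and passed no test.

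Of 27 other splicing regulators linked to EMT, 26 were tested, edgeR called 0 higher and 0 lower with or without the replicate block, and 15 of the 26 had a log2 fold change below 0 (median -0.04 beside 0.06 for all genes). DESeq2 called 1 lower and 0 higher, beside 0.473% and 2.31% of all genes. With the replicate block DESeq2 called 2 higher and 1 lower, beside 7.72% and 1.69% of all genes. The one called lower was Rbm47, an RNA-binding protein of epithelia that is known to restrain EMT. Rbm47 stood at 171, 184, 243 and 185 CPM in E-cadHI and at 68.4, 121, 129 and 118 CPM in E-cadLO libraries of mice 57, 58, 67 and 70. No E-cadLO library reached the E-cadHI range under any of the 3 scalings, a separation that 4.20% of all genes tested showed in CPM. Its log2 fold change was -0.84 with a standard error of 0.22 (adjusted p = 0.262 by edgeR and 0.0773 by edgeR with the replicate block), and it fell by DESeq2 (adjusted p = 0.0222) and by DESeq2 with the replicate block (adjusted p = 0.000611). Without mouse 58 it passed in DESeq2 with the replicate block (adjusted p = 0.00383) and not in DESeq2 without it (adjusted p = 0.0544).

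The genes of this list called higher by DESeq2 with the replicate block were Qk and Rbm38, in a fit that called 7.72% of all genes higher. Qk, a regulator of myelin mRNAs that also acts in EMT, stood at 25, 93.1, 64.1 and 338 CPM in E-cadHI and at 105, 80.1, 190 and 1122 CPM in E-cadLO libraries (adjusted p = 0.00328, DESeq2 with the replicate block). It was lower in E-cadLO in mouse 58, and without that mouse it passed in DESeq2 with the replicate block (adjusted p = 1.88e-12) and in edgeR with the replicate block (adjusted p = 0.0379) but not in DESeq2 without it (adjusted p = 0.502). Its highest values were those of mouse 70, whose summed oligodendrocyte markers were also the highest of each group, at 8685 and 34514 CPM. In mouse 58, where Qk was lower in E-cadLO, these markers were higher in E-cadLO, at 1716 and 3876 CPM. The part of oligodendrocytes in the level of Qk was not tested. Rbm38, a p53 target, stood at 7.04, 5.46, 3.64 and 6.41 CPM in E-cadHI and at 30.2, 10.7, 9.22 and 7.9 CPM in E-cadLO libraries, without overlap (adjusted p = 0.0323, DESeq2 with the replicate block). Every E-cadLO library was likewise above every E-cadHI library for 3.90% of all genes tested. Rbm38 did not pass without mouse 58 (adjusted p = 0.0892, DESeq2 with the replicate block). The other genes of this list with the largest and smallest values in the edgeR fit with the replicate block were Clk1 (0.41), Hnrnpa1 (-0.43) and Rbm10 (-0.38), which passed no test.

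Of the other SR proteins, 9 of 9 were tested and 0 were called in the 4 fits, with a median of -0.08. They ranged from Srsf4 (0.47), Srsf10 (0.32) and Srsf11 (0.18) to Srsf7 (-0.14), Srsf9 (-0.23) and Srsf6 (-0.23). Of 30 proteins of the core spliceosome, 0 were called in the 4 fits, and 23 of 30 (76.7%) had a log2 fold change below 0, beside 44.9% of all genes (edgeR), with a median of -0.18. With library totals as the scaling, 21 of 30 (70.0%) had a mean log2 ratio within mice below 0, beside 43.9% of all genes. Prpf3 (0.52), Sf3a1 (0.20) and Cdc5l (0.20) were at the upper end, and Snrpd2 (-0.55), Prpf31 (-0.48) and Snrpd3 (-0.46), which belong to the Sm ring and the U4 particle, at the lower end. Of 12 neuronal splicing regulators such as Nova1 and Srrm4, 2 had enough counts to be tested. Elavl3, a neuronal RNA stabilizer, rose in DESeq2 with the replicate block (adjusted p = 0.0388), from 0 to 2.81 CPM in E-cadHI to 0.966 to 13.5 CPM in E-cadLO libraries, and it still passed without mouse 58 (adjusted p = 0.00761). Over the 4 mice that fit called 7.72% of all genes higher. Khdrbs3 (log2 fold change -0.45, adjusted p = 0.58, edgeR) passed no test.

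Of 11 genes with exons known to respond to these regulators, 10 were tested and edgeR called 0 with or without the replicate block. Gene counts say nothing of which exons they carried. Itga6, the α6 integrin whose cytoplasmic tail is set by splicing, stood at 161, 181, 217 and 156 CPM in E-cadHI and at 28.2, 130, 119 and 93.2 CPM in E-cadLO libraries, without overlap. Every E-cadLO library was likewise below every E-cadHI library for 4.20% of all genes tested. Itga6 fell in DESeq2 with the replicate block (adjusted p = 0.0121, and 0.0075 without mouse 58), which over the 4 mice called 1.69% of all genes lower. Its log2 fold change in edgeR was -0.95 (adjusted p = 0.337). Fgfr2, a growth factor receptor, stood at 5.58, 8.45, 5.72 and 10.8 CPM in E-cadHI and at 1.78, 8.03, 1.28 and 30.1 CPM in E-cadLO libraries. It was lower in mice 57, 58 and 67 and higher in mouse 70 (log2 fold change 0.43, adjusted p = 0.821, edgeR). With the replicate block the log2 fold change turned to -0.56 (adjusted p = 0.64, edgeR). Cd44 (0.19), Slk (0.13), Ctnnd1 (-0.39), Arhgef11 (-0.18), Rac1 (-0.20), Cttn (-0.31), Pkm (-0.30) and Enah (1.42) passed no test, and Enah was at 4.75 CPM or less in each library. Mst1r was not tested for low counts.

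Of 8 transcription factors that act on Esrp1 or its family, 7 were tested, and edgeR called 0 of them with or without the replicate block. Ovol1, an epithelial repressor of EMT factors, rose in DESeq2 with the replicate block (adjusted p = 0.00813, and 0.0276 without mouse 58), from 34, 16.7, 17.7 and 14.4 CPM in E-cadHI to 49.3, 30.7, 81.6 and 25.8 CPM in E-cadLO libraries. Over the 4 mice that fit called 7.72% of all genes higher. Zeb2, a repressor of Esrp1, stood at 0.0697, 4.38, 1.78 and 15.2 CPM in E-cadHI and at 40.0, 10, 14.7 and 74.4 CPM in E-cadLO libraries, higher in 4 of 4 mice (log2 fold change 2.71, adjusted p = 0.334, edgeR). The other tested repressors, named after their values were seen, did not share this direction in every mouse, since Zeb1 was lower in E-cadLO in mouse 58 (log2 ratio -0.55), Snai1 in mouse 70 (-0.26) and Twist1 in mice 58 and 70 (-0.29 and -0.43). None of them passed a test over the 4 mice. Without mouse 58, Zeb1 passed in DESeq2 with the replicate block (log2 fold change 4.15, adjusted p = 0.000456), which then called 1003 genes higher. Zeb2, Snai1 and Twist1 did not pass in that fit (adjusted p = 0.0522, 0.467 and 0.416). Also without mouse 58, Zeb1 did not pass in DESeq2 without the block (adjusted p = 0.278) or in edgeR with or without it (adjusted p = 0.17 and 0.449). Grhl2, an activator of epithelial genes, stood at 52.3, 65.5, 60.7 and 49.2 CPM and at 25.8, 44.0, 51.2 and 33.1 CPM (log2 fold change -0.57, adjusted p = 0.331, edgeR).

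**Figure D5:**
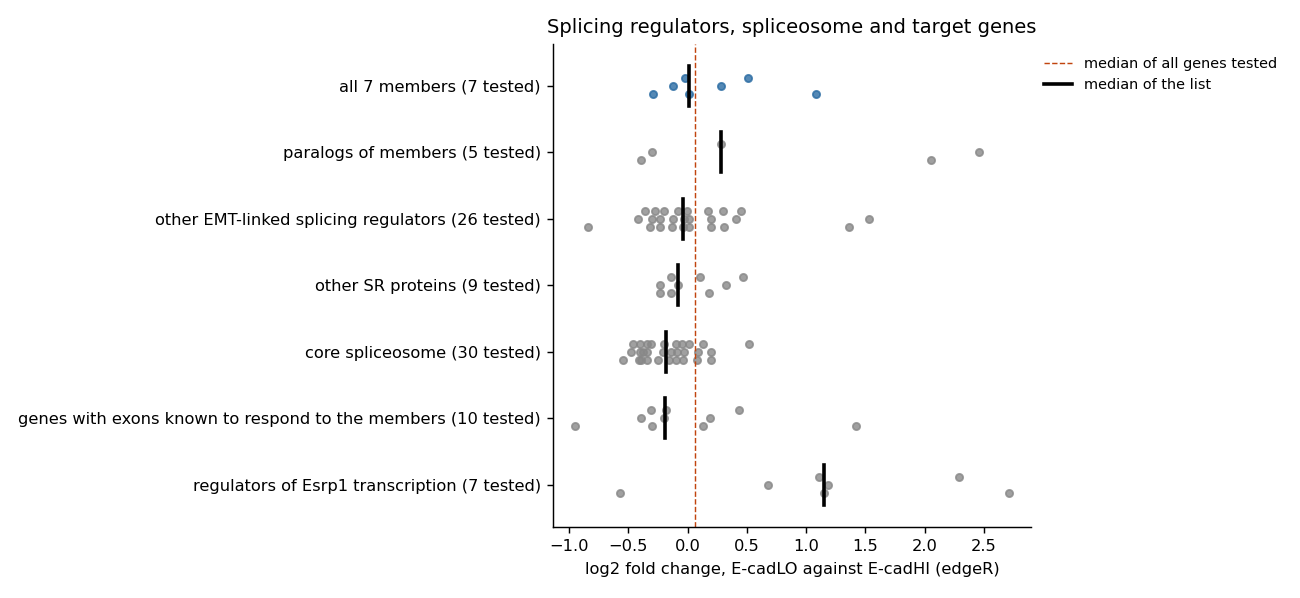
Log2 fold change by edgeR, E-cadLO against E-cadHI (x axis), of the 7 regulators and of the genes of each list, with the median of each list as a bar and that of all genes as a dashed line. The median is 0.01 for the 7 regulators, -0.18 for the core spliceosome and 0.06 for all genes tested.

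Genes whose levels followed a regulator most closely over the 8 libraries were sought among 9233 genes with a mean of at least 10 CPM. These correlations describe 8 libraries from 4 mice, which are not independent. Nrip3 (Pearson's r = 0.993) and Hexa (0.987), a lysosomal enzyme, were most like Ptbp2. Nrip3 reached 4.61 to 12 CPM in E-cadHI and 26.5 to 84.7 CPM in E-cadLO libraries. Rbfox2 was closest to Ltbp2 (0.983) and Adamts8 (0.983), both genes of extracellular matrix proteins, of which Ltbp2 reached 252 CPM in 1 E-cadLO library. Mbnl1 was closest to Itgav (0.975) and Myef2 (0.966). Esrp2 was closest to Dag1 (0.979) and Pkp3 (0.967), genes of cell adhesion. Esrp1 was closest to Prrc2c (0.95) and Rnf138 (0.925), Ptbp1 to Fancg (0.968) and Rbak (0.966), and Srsf1 to Tmem101 (0.978) and Sel1l3 (0.977). Among the regulators themselves, r was highest for Rbfox2 with Mbnl1 (0.879) and for Mbnl1 with Ptbp2 (0.713), and all of these pairs share the high value of the E-cadLO library of mouse 57.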

How the data were processed

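The deposited table held whole-number counts per gene, which the authors made from single reads of 65 bases of mRNA libraries, mapped with HISAT2 2.1.0 to GRCm38. The paper names Icount for the counting and the submitters' processing notes name HTSeq, and the use of strand is not given in the sources used here. The counts were deposited without normalization. The 365 of 32259 entries without an identifier (0.0636% to 0.0954% of counts) were left out. The 7 regulators and all gene lists were chosen with earlier results of these data known.

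Counts were scaled by TMM, filtered by filterByExpr and compared with edgeR 4.0.16 in R 4.3.3 (quasi-likelihood test over all 8 libraries, Benjamini-Hochberg adjustment, threshold 0.05). Standard errors and 95% intervals were taken from its F statistic. The library of each mouse is known from the labels, and both libraries of a mouse deviated together from their group means (correlations of 0.248 to 0.692, beside -0.541 to 0.144 for different mice), so the mouse was also fitted as a replicate block. DESeq2 1.42.0 was fitted with and without the block. The other alternatives were DESeq2's size factors or library totals as scaling, no filter, a filter of 10 counts in every library, a pseudocount of 2 CPM in place of 0.5, and leaving out each mouse. Leaving out mice in DESeq2 was chosen after seeing the data. The edgeR steps were tested on simulated data with 200 genes changed 4-fold. The fit without the block recovered 60.0% of these, and 6.98% of its calls were false. With the block it recovered 51.5%, and 4.63% of its calls were false, so real changes can be missed. The simulated libraries were drawn without an effect of the mouse, so the block was not tested in the setting of these data. P-values without the block rest on the spread between the libraries of a group and treat the 2 libraries of a mouse as independent. With the block they rest on the spread of the change within these 4 mice. The size of a count bears on counting error only, not on the spread between mice. PCR copies are not independent molecules, so reads do not give the counting error of molecules exactly.

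The Ptbp2 exon and gene lengths were read from GENCODE M21 on GRCm38, in which 31719 of the gene identifiers were found. Genes overlap on the opposite strand for Esrp1, Esrp2, Rbfox2, Ptbp1, Ptbp2 and Srsf1, and where transcripts share sequence they cannot be told apart without strand. Rbfox2 and Ptbp2 share no stretch of 65 bases with annotated transcripts of another gene. Named genes were the 7 regulators, their 5 paralogs, the target genes and the 2 genes most correlated with each regulator. In each list of regulators, up to 3 with the largest and 3 with the smallest log2 fold change with the block were named. Of the regulators of Esrp1, 3 were named at first, and Zeb1, Snai1 and Twist1 were added after their values were seen. Figures were made with Python 3.11, pandas 2.3 and matplotlib 3.10.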

Additional observations from a re-analysis of the deposited data

Results flagged for a closer look

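Mbnl1 was singled out in 2 of the 21 sets of 4 values examined, 3 for each of the 7 regulators, where chance gives about 1.05 (about 1 set in 20). In the E-cadLO group, the 110.2 CPM of mouse 57 lay far from the other 3 libraries, with a gap of 0.9 of the whole range of the group. Among the 4 ratios within a mouse, the log2 ratio of 1.83 in mouse 57 lay apart from the others by 0.834 of the range. The first value is from the E-cadLO library of mouse 57, with 1202 CPM of fibroblast and mural markers. The ratio also rests on the E-cadHI library of that mouse, the lowest of its group at 30.5 CPM of Mbnl1, with 9.41 CPM of those markers. The part of these markers in the values was not tested.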

How the results depend on the processing

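Of the 7 regulators, Ptbp2 and Srsf1 kept their direction in all 22 alternative fits, Ptbp2 with a log2 fold change of 0.82 to 1.29 and Srsf1 with one of -0.37 to -0.15. Ptbp2 passed the threshold in DESeq2 (1.11) and DESeq2 with the replicate block (1.08), and among the fits without 1 mouse (0.82 to 1.29) in 5, all by DESeq2, with adjusted p from 0.00379 to 0.68 over all alternatives. Esrp1 turned to 0.00 or above with DESeq2 (0.00), DESeq2's size factors in edgeR (0.00) and the filter of 10 counts (0.02), and ranged from -0.16 to 0.09 without 1 mouse. Ptbp1 turned to -0.01 with the replicate block and ranged from -0.08 to 0.13 without 1 mouse. Without 1 mouse, Esrp2 ranged from -0.46 to 0.12, Rbfox2 from -0.09 to 0.44 and Mbnl1 from -0.02 to 0.77. The mean log2 ratio within mice turned for Esrp1 with library totals (0.01, and -0.17 to 0.07 without 1 mouse), for Ptbp1 with DESeq2's size factors (0.01) and library totals (0.04, and -0.10 to 0.10 without 1 mouse) and for Rbfox2 without mouse 57 (-0.07 to 0.33 without 1 mouse). The cause was not tested.

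Genes called higher in E-cadLO numbered 0 by edgeR, 23 without a filter, 3 with the filter of 10 counts, 99 with the replicate block, 298 by DESeq2, 1030 by DESeq2 with the replicate block and 0 to 1003 without 1 mouse. Genes called lower numbered 0 by edgeR, 61 by DESeq2, 225 by DESeq2 with the replicate block and 0 to 281 without 1 mouse. With the replicate block, edgeR called 2 higher without mouse 70 and 425 without mouse 57. The replicate block changed no edgeR call of the 7 regulators. Of 210 values of list medians under alternatives, 199 moved by less than the spread between replicates. Depth limits the low genes most, such as Rbfox1, Elavl3 and Enah, and with 4 mice the exact test has only 16 sign flips and cannot pass the threshold of 0.05.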

Other observations

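The 7 regulators varied more between mice in E-cadLO than in E-cadHI cells. The coefficient of variation was larger in the E-cadLO libraries for 7 of 7, from 19.1% (Srsf1) to 63.1% (Esrp2), beside 1.98% (Srsf1) to 27.1% (Esrp2) in the E-cadHI libraries. It was also larger in E-cadLO libraries for 72.1% of all genes tested, with a median of 33.7% beside 21.5%. Without mouse 57, it was larger for 5 of the 7 and for 65.3% of all genes. The values were seen before this comparison was made, and it was not tested.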
